A study of Mus musculus with 4 samples.

Results

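The genes described here were 44 components of Nodal, TGF-beta and BMP signalling in mouse embryonic stem cells (ESCs), chosen by name as ligands, extracellular antagonists, receptors, SMAD proteins, their cofactors and ubiquitin ligases, and the Id target genes. All 44 were found among the 49997 genes of the count table, and 39 had enough reads to be tested beside 18341 genes in all. By branch, 13 belonged to Nodal/activin signalling, 18 to BMP signalling, 5 to TGF-beta signalling, and 8 were regulators shared by the branches. Poly(A) RNA was sequenced from E14 ESCs that carried a scrambled short hairpin RNA (shScramble, 2 libraries) or a hairpin against Ythdf2 (shYthdf2, 2 libraries), the mRNA of a reader protein that binds N6-methyladenosine (m6A) in RNA and promotes decay of the bound transcripts. Both groups were stable lines made by lentiviral infection and puromycin selection, grown on gelatin in KnockOut serum replacement with leukemia inhibitory factor, and both carried a tdTomato transgene under the MERVL promoter. A pair of hairpins against Ythdf2 was used in the study, and which of them was present in these libraries is not given by the labels. The comparison asked which mRNAs differ in level when YTHDF2 is depleted.

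Ligands of the TGF-beta superfamily bind pairs of type I and type II serine/threonine kinase receptors. Nodal, activin and TGF-beta signal through SMAD2 and SMAD3, BMPs signal through SMAD1, SMAD5 and SMAD9, and both sets act in the nucleus with SMAD4. In mouse ESCs BMP4 is known to sustain self-renewal together with leukemia inhibitory factor, in part through Id genes, while Nodal induces its own antagonists Lefty1 and Lefty2.

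Each library held 31113006 to 36422510 assigned reads, and the targeted mRNA was examined first. Ythdf2 had 3365 and 2760 reads in shScramble and 1086 and 1082 in shYthdf2, which left it at 34.2% of the control level (log2 fold change -1.55 ± 0.11 SE, adjusted p = 0.000693 in the quasi-likelihood test of edgeR). The 8 ESC markers summed to 6163 to 6264 CPM (reads scaled to a common library size) in shScramble and 5588 to 5935 CPM in shYthdf2, and edgeR called 0 of them, while DESeq2 called 1, Nanog (log2 fold change -0.41, adjusted p = 0.0594 in edgeR and 0.00501 in DESeq2, groups not overlapping). Summed markers of primitive endoderm (15.1 to 15.2 against 12.3 to 19.9 CPM), mesoderm (27.0 to 28.2 against 21.6 to 29.3 CPM) and fibroblasts (17.2 to 17.9 against 9.54 to 15.6 CPM, with Dcn at 0 reads) were far lower, and 0 of their genes were called. The mesoderm sum was mostly Eomes (21.3 and 20.2 against 19.3 and 15.2 CPM). Within it T was lower (54 and 94 against 43 and 20 reads, -1.30, adjusted p = 0.183 in edgeR, unadjusted p = 0.0358 in DESeq2). Kdr was higher (117 and 50 against 167 and 121 reads, 0.77, adjusted p = 0.294 in edgeR). For Mixl1, Gsc and Fgf8 the groups overlapped. Trophectoderm markers summed to 80.4 to 87.4 against 84.6 to 110.8 CPM with 0 called. That sum was mostly Tfap2c (67.7 and 77.9 against 103 and 79.5 CPM), whereas Krt8 (7.75 and 5.90 against 4.53 and 3.21 CPM, -0.82, adjusted p = 0.134 in edgeR) and Krt18 (4.08 and 2.95 against 1.93 and 1.31 CPM, -1.12, adjusted p = 0.11 in edgeR) had both knockdown libraries below both controls. Neuroectoderm markers summed to 29.0 to 30.0 against 39.7 to 46.6 CPM. Of them Nes was called higher (14.5 and 13.6 against 26.4 and 22.1 CPM), while Pax6 and Sox1 had overlapping groups. Markers of 2-cell-like cells summed to 32.2 to 47.4 against 65.1 to 174.1 CPM, and edgeR called 3 of the 8 tested higher (Zscan4a, Usp17la and Usp17le). Zscan4a (5.33 and 8.22 against 14.4 and 51.4 CPM) was not called by DESeq2 (adjusted p = 0.0856). For Zscan4d and Tdpoz4 the groups overlapped. The part of these cell states in the values below was not tested. In bulk RNA, fewer cells of a type and less RNA per cell cannot be told apart.

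Of the 39 genes tested, 3 passed an adjusted p of 0.05 in edgeR. Lefty2 and Id1 fell, and Fst, which encodes the activin antagonist follistatin, rose. These calls made 1 member higher, where 2.43% of all genes tested were called higher, and 2 members lower, where 1.49% were called lower, so that the count on the higher side was near the background. At an unadjusted p under 0.05 in edgeR, 4 of 39 members (10.3%) were higher beside 11% of all genes, and 11 of 39 (28.2%) were lower beside 9.8% of all genes. The higher side was close to the background and the lower side exceeded it, and this difference from the background was not tested. In 20 members (51.3%) both shYthdf2 libraries lay below both shScramble libraries, beside 25.5% of all genes, and in 10 (25.6%) both lay above, beside 26.2% of all genes, while the groups overlapped in 9. The median log2 fold change was -0.14 over the members and 0.0019 over all genes tested. Under the study's own criteria in DESeq2 (p of at most 0.05 and a change of at least 2-fold), Fst was higher and Lefty2 lower. Of all 30565 genes with a read, including those too low to be tested in edgeR, 1.63% and 1.25% met the criteria. Among the 18341 genes tested in edgeR, 456 were higher and 351 lower by the same criteria. The methods call the samples independent biological replicates, and with 2 libraries a group an exact permutation test could not give a two-sided p below 0.333.

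**Figure D1:**
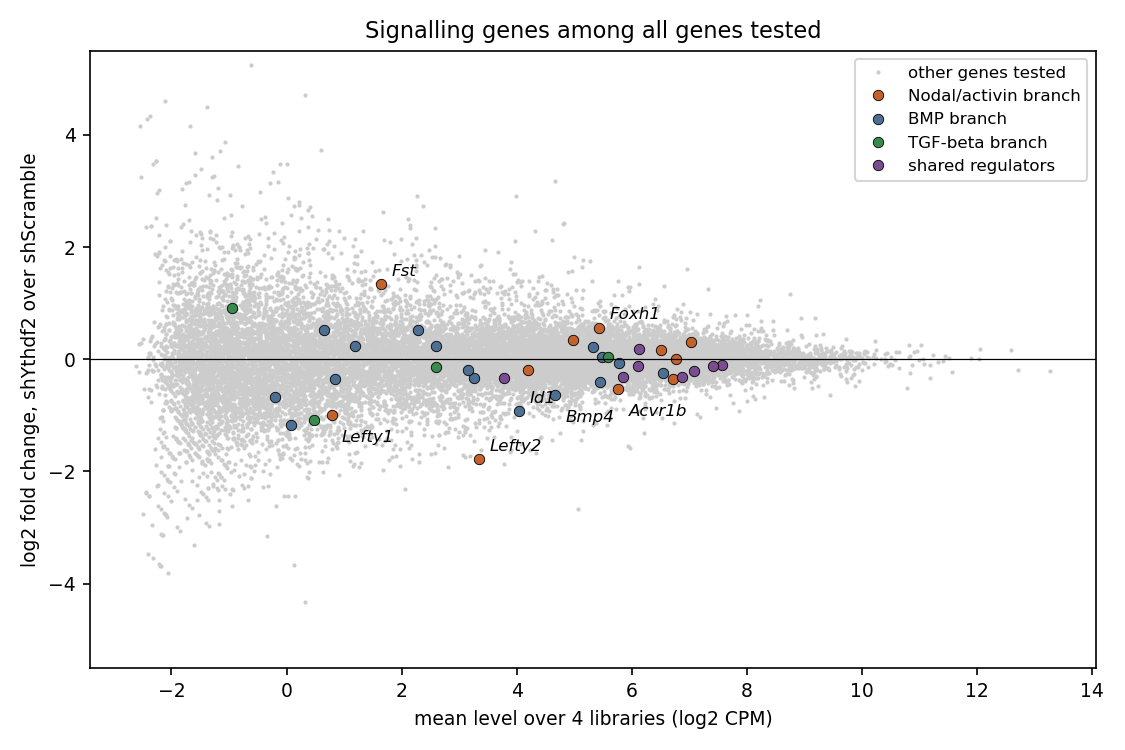
Log2 fold change (shYthdf2 over shScramble, y axis) against mean level over the 4 libraries (log2 CPM, x axis) for the genes tested, with the 39 signalling genes coloured by branch. Lefty2 at -1.78 and Fst at 1.34 lie farthest from 0 among the members, most of the well-expressed members lie near 0, and 2 other genes lie beyond the y axis.

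The paired antagonists Lefty1 and Lefty2 are neighbours on chromosome 1 with similar coding sequences, so their sequences bear on whether reads can be told apart. Both coding sequences held 1104 bases, aligned without a gap and were 91.8% identical, with 90 differing bases and no identical run longer than 140 bases. That is shorter than a 150-base read, the length that the methods give for the m6A libraries. Shorter reads could match both genes. The stretch below, coding bases 39 to 138 in the first exon of each gene, was the 100-base window within 1 exon with the most differences, and capitals mark its 30 differing bases (GRCm38, plus strand, chr1:180935148-180935247 for Lefty1 and chr1:180893222-180893321 for Lefty2).
Lefty1: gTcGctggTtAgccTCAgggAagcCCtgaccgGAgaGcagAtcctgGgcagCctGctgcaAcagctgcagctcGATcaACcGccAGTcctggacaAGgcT
Lefty2: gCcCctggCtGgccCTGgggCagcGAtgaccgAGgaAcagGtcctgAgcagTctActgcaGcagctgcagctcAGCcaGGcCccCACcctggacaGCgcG
Over whole transcripts, 0.488% of the 150-base windows of Lefty2 were also found in Lefty1, and 0.747% of those of Lefty1 in Lefty2. Lefty1 also had 33.3% of its exon bases under the antisense gene model Gm39715, which itself held 2, 0, 0 and 0 reads, whereas Lefty2 and Id1 had 0% of their exon bases under another gene. Smaller overlaps were found for Acvr2a (7.73%, with Orc4), Bmp4 (4.08%, with Gm15217) and Fst (1.76%, with Gm41074), and 0.884% of the windows of Bmp8b were shared with Bmp8a. The counting used no strand setting, so reads from overlapping genes could not be told apart and were left out.

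Among the extracellular antagonists, Lefty2 showed the lowest fold change of the 39 members. Lefty2 (mm10, chr1:180893108-180899107, plus strand), which blocks Nodal from its receptors, had 514 and 547 reads in shScramble (14.3 and 17.4 CPM) and 144 and 178 in shYthdf2 (4.21 and 4.97 CPM). Both knockdown libraries were far below both controls and the groups did not overlap. Lefty2 thus fell to 29.1% of the control level (log2 fold change -1.78 ± 0.21 SE, 95% interval -2.26 to -1.30, adjusted p = 0.00456 in edgeR). Its paralog Lefty1 had fewer reads, with 59 and 93 (1.64 and 2.95 CPM) in shScramble and 42 and 38 (1.23 and 1.06 CPM) in shYthdf2. Lefty1 is also shorter (1621 against 2477 exon bases) and partly lies under Gm39715, so read counts overstate its distance in level from Lefty2. The groups did not overlap, but the control libraries differed by more than the distance from the lower control to the knockdown, and the value of -0.997 ± 0.41 SE did not pass (adjusted p = 0.206 in edgeR). The reads of Lefty1 and Lefty2 were also summed, giving 15.9 and 20.3 CPM in shScramble and 5.44 and 6.04 CPM in shYthdf2, a log2 ratio of -1.66. Reads that matched both genes were left out of the counts, so the sum does not recover them. Lefty2 made most of it (a mean of 15.8 of 18.1 CPM in shScramble), so the ratio largely repeats the Lefty2 value.

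Fst (mm10, chr13:114452262-114458989, minus strand) moved the other way. It had 62 and 57 reads in shScramble (1.72 and 1.81 CPM) and 173 and 140 in shYthdf2 (5.06 and 3.91 CPM). Both knockdown libraries were above both controls. Fst rose 2.54-fold (log2 fold change 1.34 ± 0.31 SE, 95% interval 0.66 to 2.03, adjusted p = 0.0434 in edgeR), a call close to the threshold that was lost without shYthdf2 replicate 1 (1.15, adjusted p = 0.11 in edgeR). Of the BMP antagonists, Chrd (chordin) had 208 and 166 reads against 241 and 216 (log2 fold change 0.24) and Nog (noggin) had 33 and 39 against 23 and 24 (-0.68), and neither passed. Nog was annotated on 2 sequences of the assembly, with 1922 exon bases on chromosome 11 and 3844 in all. Reads matching both copies would have been left out, so its counts and its level per length may be low estimates. Cer1, an antagonist of Nodal and BMP, had 0 reads in every library, which allows up to 3 reads (0.0824 to 0.0964 CPM) and covers counting error only, and the BMP antagonist Grem1 had 4, 0, 4 and 0 reads.

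**Figure D2:**
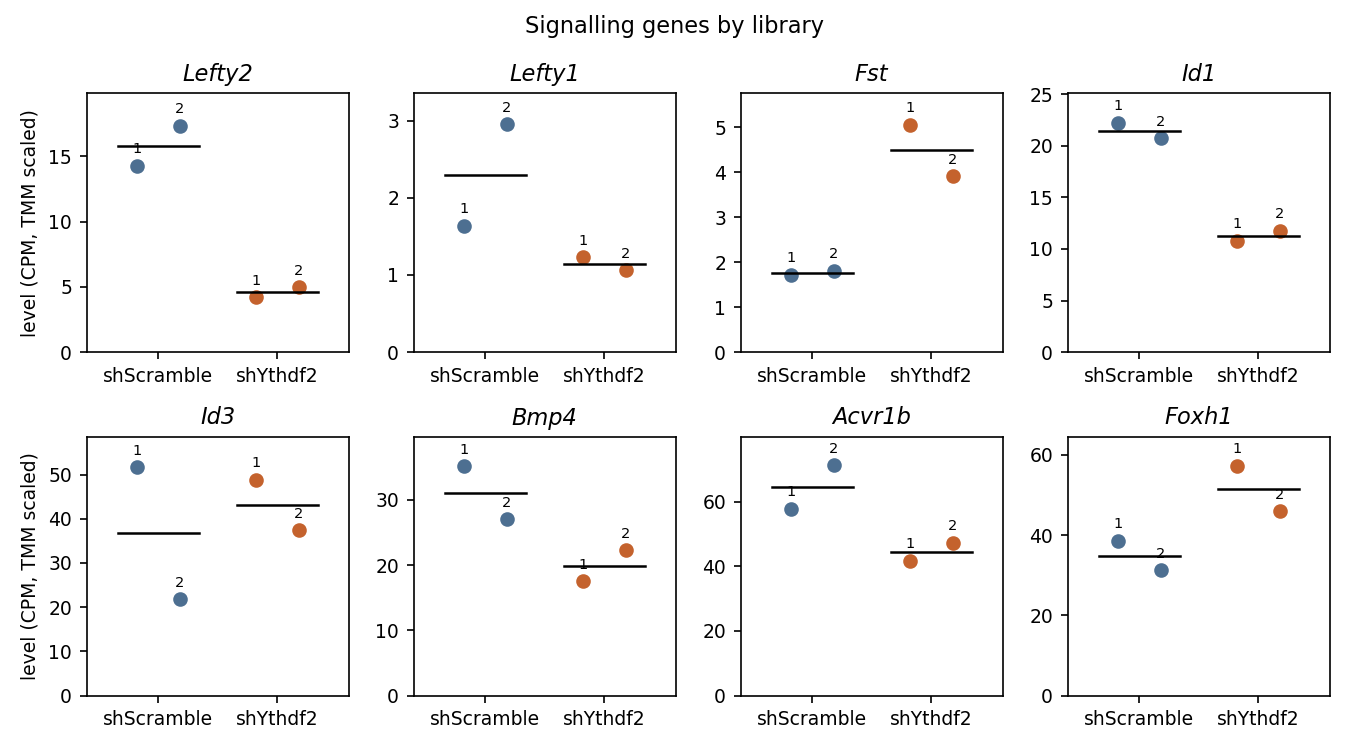
Level of 8 signalling genes in each library (y axis, CPM after TMM scaling, from 0, with its own range per gene) in shScramble and shYthdf2, where points are libraries marked by replicate number and bars are means of 2. Lefty2, Id1 and Fst separate the groups clearly, while the shScramble libraries of Id3 stand at 51.7 and 21.8 CPM and span those of shYthdf2.

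None of the 7 ligands tested passed in edgeR. At an unadjusted p under 0.05 in edgeR, 1 (14.3%) was higher beside 11% of all genes, and 2 (28.6%) were lower beside 9.8%. These differences from the background were not tested. Nodal, the ligand that gives the branch its name, had 3190 and 2603 reads (88.6 and 82.6 CPM) in shScramble and 3457 and 3219 (101 and 89.9 CPM) in shYthdf2. The libraries lay close together, with both knockdown values just above the controls, at a log2 fold change of 0.16 (95% interval -0.092 to 0.41, adjusted p = 0.47 in edgeR). Inhbb, which encodes the beta B subunit of activin and inhibin, had 4347 and 3519 reads (121 and 112 CPM) against 4741 and 5325 (139 and 149 CPM). Both knockdown libraries were above both controls, but the value of 0.31 ± 0.11 SE did not pass (adjusted p = 0.139 in edgeR). Bmp4, the BMP ligand with the highest level per length here, had 1265 and 851 reads (35.1 and 27.0 CPM) against 598 and 798 (17.5 and 22.3 CPM). The groups did not overlap, and the value of -0.64 ± 0.18 SE missed the threshold (adjusted p = 0.0811 in edgeR), whereas DESeq2 gave an adjusted p of 0.0185. Bmp8b, a BMP known from germ cell development, had 42 and 55 reads against 25 and 20 (-1.17 ± 0.47 SE, adjusted p = 0.194 in edgeR).

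The other ligands were weakly expressed or differed little. Tgfb1 had 283 and 151 reads against 229 and 173, with overlapping groups and a log2 fold change of -0.14 (95% interval -0.80 to 0.53). Bmp7 had 110 and 156 reads against 210 and 189 (0.52), and Tgfb2 had 12 and 12 against 31 and 16 (0.92), where the interval ran from -0.48 to 2.31. The remaining ligands were not tested. Inhba, the beta A subunit, had 2, 0, 0 and 0 reads, Bmp2 had 6, 4, 6 and 4, and Tgfb3 had 0, 8, 0 and 0, in the order shScramble 1 and 2 and shYthdf2 1 and 2.

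Of the 9 receptors, 0 passed an adjusted p of 0.05 in edgeR, 4 (44.4%) were lower at an unadjusted p under 0.05, beside 9.8% of all genes, and DESeq2 called 1, Acvr1b. Their log2 fold changes were negative in 7 of 9, with a median of -0.33, and in 6 of 9 (66.7%) both knockdown libraries lay below both controls, beside 25.5% of all genes, and in 0 both lay above, beside 26.2%. These differences from the background were not tested. Acvr1b, the type I receptor for activin and Nodal, had 2079 and 2243 reads (57.7 and 71.2 CPM) in shScramble and 1423 and 1691 (41.6 and 47.3 CPM) in shYthdf2. The groups did not overlap, and the value of -0.54 ± 0.14 SE fell short of the threshold in edgeR (adjusted p = 0.0616) but not in DESeq2 (adjusted p = 0.0107). Acvr2b, a type II receptor of the same branch, had 4060 and 3824 reads against 3017 and 3438 (113 and 121 against 88.3 and 96.1 CPM). All knockdown values were below the controls, at -0.34 ± 0.11 SE (adjusted p = 0.11 in edgeR). The second type II activin receptor, Acvr2a, had overlapping groups (831 and 510 reads against 574 and 624, -0.20).

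On the BMP side, Bmpr2, the type II BMP receptor, had 1634 and 1712 reads (45.4 and 54.3 CPM) in shScramble and 1066 and 1585 (31.2 and 44.3 CPM) in shYthdf2. The groups were separated by little, since the higher knockdown library lay just under the lower control (-0.40 ± 0.17 SE, adjusted p = 0.224 in edgeR). Bmpr1a, a type I receptor, had 3939 and 2955 reads against 2669 and 3337, or 109 and 93.8 against 78.1 and 93.2 CPM. It showed the same narrow separation, at -0.25 ± 0.13 SE (adjusted p = 0.316 in edgeR). Acvr1, a further type I receptor, had 375 and 343 reads against 294 and 297 (-0.33), and Bmpr1b had 73 and 17 against 61 and 69, so that its controls spanned the knockdown. For TGF-beta itself, the type II receptor Tgfbr2 had 70 and 58 reads (1.94 and 1.84 CPM) against 38 and 24 (1.11 and 0.671 CPM), with groups that did not overlap and a value of -1.09 ± 0.42 SE (adjusted p = 0.18 in edgeR). Its type I partner Tgfbr1 overlapped (1867 and 1356 reads against 1756 and 1649, 0.038).

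**Figure D3:**
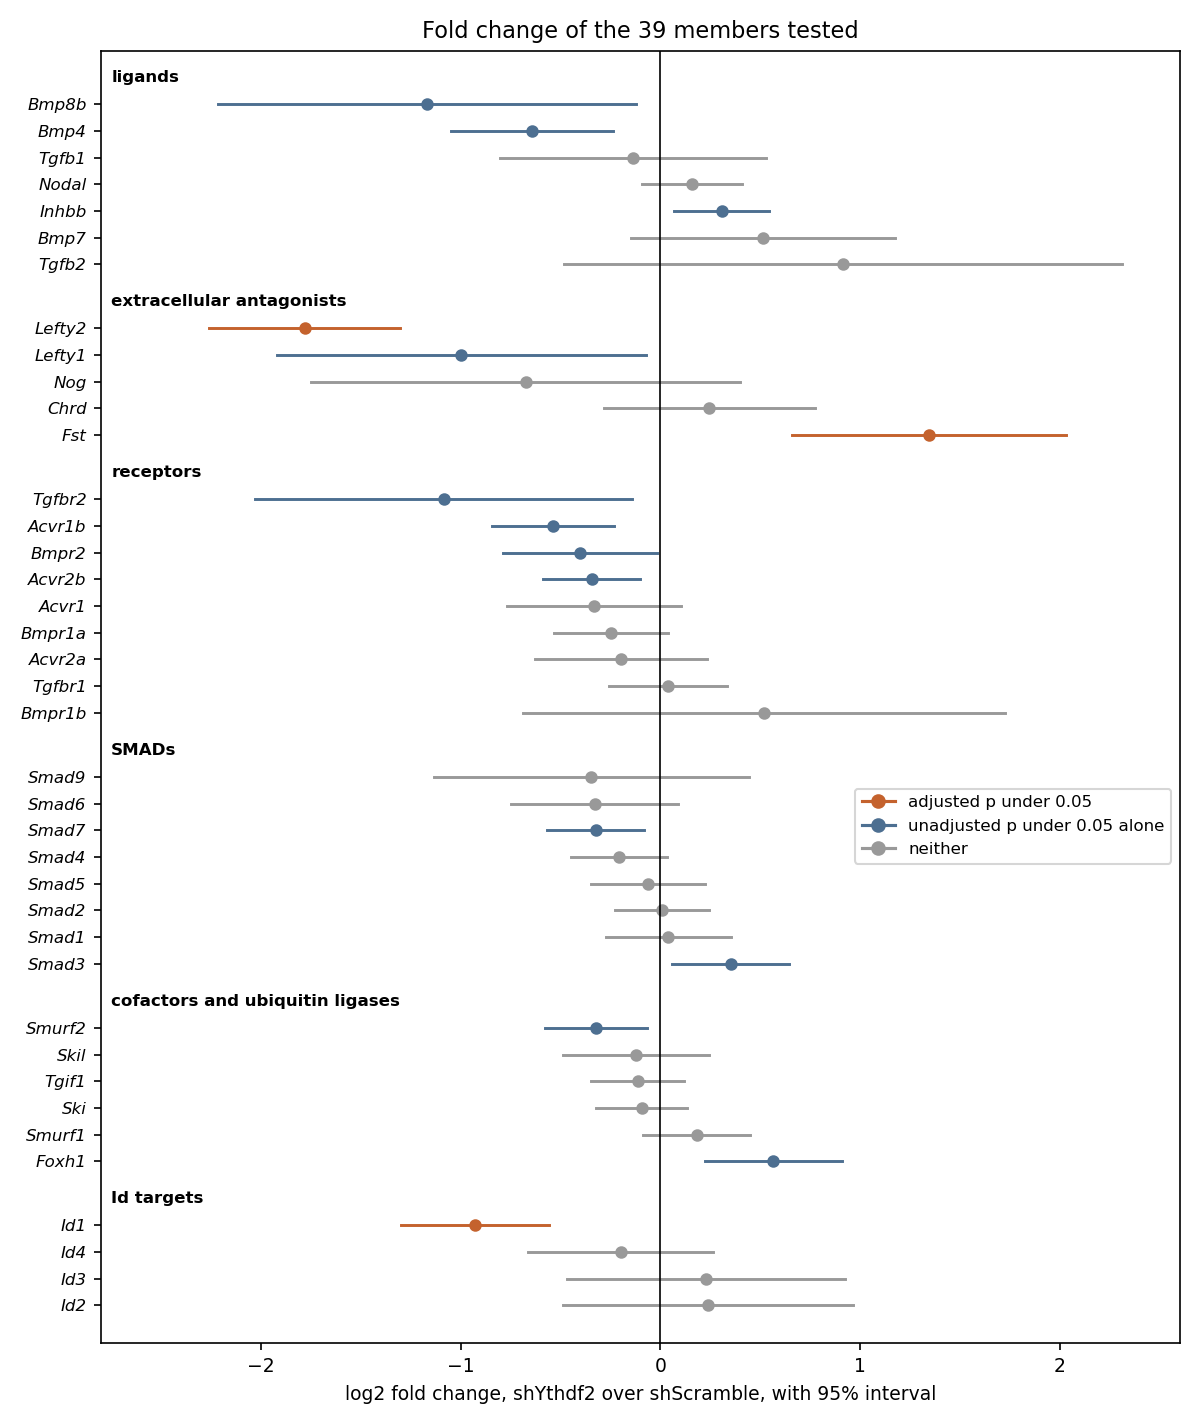
Log2 fold change of the 39 signalling genes tested (x axis, shYthdf2 over shScramble), by role, where points are edgeR estimates and lines 95% intervals. Lefty2, Fst and Id1 passed an adjusted p of 0.05, and the receptors lie mostly left of 0 without any of them passing.

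Of the 8 SMAD genes, 0 passed in edgeR, beside 3.91% of all genes, so this count was near the background. At an unadjusted p under 0.05 in edgeR, 12.5% were higher and 12.5% lower, beside 11% and 9.8% of all genes. In 4 (50%) both knockdown libraries lay below both controls, beside 25.5% of all genes, and in 1 (12.5%) above, beside 26.2%. These differences from the background were not tested. The receptor-activated Smad2, Smad1 and Smad5 were near their control level. Smad2 had 3847 and 3445 reads against 3567 and 4041 (107 and 109 against 104 and 113 CPM). The groups overlapped at a log2 fold change of 0.0074 (95% interval -0.23 to 0.24). Smad1 (1727 and 1260 reads against 1679 and 1480, 0.04, interval -0.27 to 0.36) and Smad5 (1920 and 1863 against 1688 and 2086, -0.062, interval -0.35 to 0.22), which carry the BMP signal, overlapped as well. Smad3, the partner of Smad2, had 959 and 915 reads against 1194 and 1292 (26.6 and 29.0 against 34.9 and 36.1 CPM). Both knockdown libraries were above both controls, at 0.35 ± 0.13 SE (adjusted p = 0.169 in edgeR). Smad4, the common partner, had 5495 and 4295 reads against 4212 and 4553 (153 and 136 against 123 and 127 CPM, -0.21, adjusted p = 0.317 in edgeR). Smad7, an inhibitory SMAD that acts on all branches, had 4697 and 4058 reads against 3752 and 3489 (130 and 129 against 110 and 97.5 CPM). Its groups did not overlap, and its value was -0.32 ± 0.11 SE (adjusted p = 0.13 in edgeR). The BMP-directed inhibitor Smad6 (518 and 515 reads against 374 and 483) was at -0.33 and Smad9 (74 and 61 against 50 and 60) at -0.35, with intervals that crossed 0.

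Among the 6 cofactors and ubiquitin ligases, Foxh1, the DNA-binding partner of SMAD2 and SMAD3 at Nodal targets, had 1390 and 983 reads (38.6 and 31.2 CPM) in shScramble and 1959 and 1644 (57.3 and 45.9 CPM) in shYthdf2. Both knockdown libraries were above both controls, and the value of 0.56 ± 0.15 SE missed the threshold in edgeR (adjusted p = 0.0747) and passed in DESeq2 (adjusted p = 0.0176). Foxh1 had 10.7% of its exon bases under the opposite-strand gene Kifc2. Smurf2, a ubiquitin ligase that targets SMADs and receptors, had 2178 and 2105 reads against 1766 and 1791 (60.5 and 66.8 against 51.7 and 50.05 CPM), with separate groups at -0.32 ± 0.11 SE (adjusted p = 0.147 in edgeR). Its relative Smurf1 was at 0.18. The corepressors Tgif1 (6390 and 5519 reads against 5827 and 5559, -0.11), Ski (-0.095) and Skil (-0.12) had intervals that crossed 0.

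The Id genes encode inhibitors of basic helix-loop-helix factors and are transcribed in response to BMP. Of the 4, only Id1 passed in edgeR, which is 25% of this short list beside 3.91% of all genes, a difference that was not tested. Id1 (mm10, chr2:152736251-152737410, plus strand) had 800 and 653 reads (22.2 and 20.7 CPM) in shScramble and 369 and 421 (10.8 and 11.8 CPM) in shYthdf2. Replicates lay close together and the groups were well apart, and Id1 fell to 52.5% of the control level (log2 fold change -0.93 ± 0.17 SE, 95% interval -1.30 to -0.56, adjusted p = 0.0197 in edgeR). Id3, the Id gene with the highest level, had 1861 and 687 reads (51.7 and 21.8 CPM) in shScramble and 1670 and 1337 (48.9 and 37.4 CPM) in shYthdf2. The control libraries spanned both knockdown libraries, so the value of 0.23 (interval -0.47 to 0.92) depended on which control was kept: it was 0.98 and called higher without shScramble replicate 1 (adjusted p = 0.000207 in edgeR) and -0.26 without shScramble replicate 2. Id2 (69 and 71 reads against 83 and 89, 0.24) and Id4 (321 and 320 against 302 and 278, -0.20) did not pass. Summed over the 4 Id genes, the level was 84.7 and 54.9 CPM in shScramble and 70.9 and 59.4 CPM in shYthdf2, a log2 ratio of -0.10, with overlapping groups.

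By branch, the log2 fold changes had a median of 0.0074 over the 11 Nodal/activin genes tested, -0.22 for the 16 BMP genes, -0.049 for the 4 TGF-beta genes (-0.27 to 0.22 when 1 library was left out) and -0.16 for the 8 shared regulators. Called genes were 2 of the Nodal/activin branch (Lefty2 and Fst), 1 of the BMP branch (Id1) and 0 of the others. All of the members at an unadjusted p under 0.05 on the higher side (Inhbb, Fst, Smad3 and Foxh1) were in the Nodal/activin branch, which also held 4 on the lower side (Lefty1, Lefty2, Acvr1b and Acvr2b). These were 36.4% of the branch in each direction, beside 11% of all genes higher and 9.8% lower, and its 2 calls were 18.2% of it, beside 3.91% of all genes. The BMP branch had 0 higher and 4 lower (25%). The difference between branches was not tested.

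Per exon length, 18 of the 39 members stood at an RPKM (reads scaled to exon length and library size) of 10 or more in shScramble, 14 between 1 and 10 and 7 below 1, and the median was 7.60 RPKM beside 3.38 over all genes tested. Tgif1 (41.9 ± 0.38 RPKM, SD, n = 2), Nodal (40.9 ± 2.0), Id3 (38.6 ± 22.2), Ski (35.98 ± 0.22), Smad7 (29.2 ± 0.26) and Inhbb (27.3 ± 1.5) had the highest levels, of which the first 4 differed by less than the SD of Id3. Lefty2 dropped from 6.39 ± 0.88 to 1.85 ± 0.22 RPKM, from position 21 to 29 among the members, and Id1 from 18.5 ± 0.91 to 9.72 ± 0.59 RPKM, from position 8 to 14. Fst went from 0.609 ± 0.021 to 1.55 ± 0.28 RPKM, and Foxh1 stood at 10.2 ± 1.5 and 15.1 ± 2.3 RPKM.

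**Figure D4:**
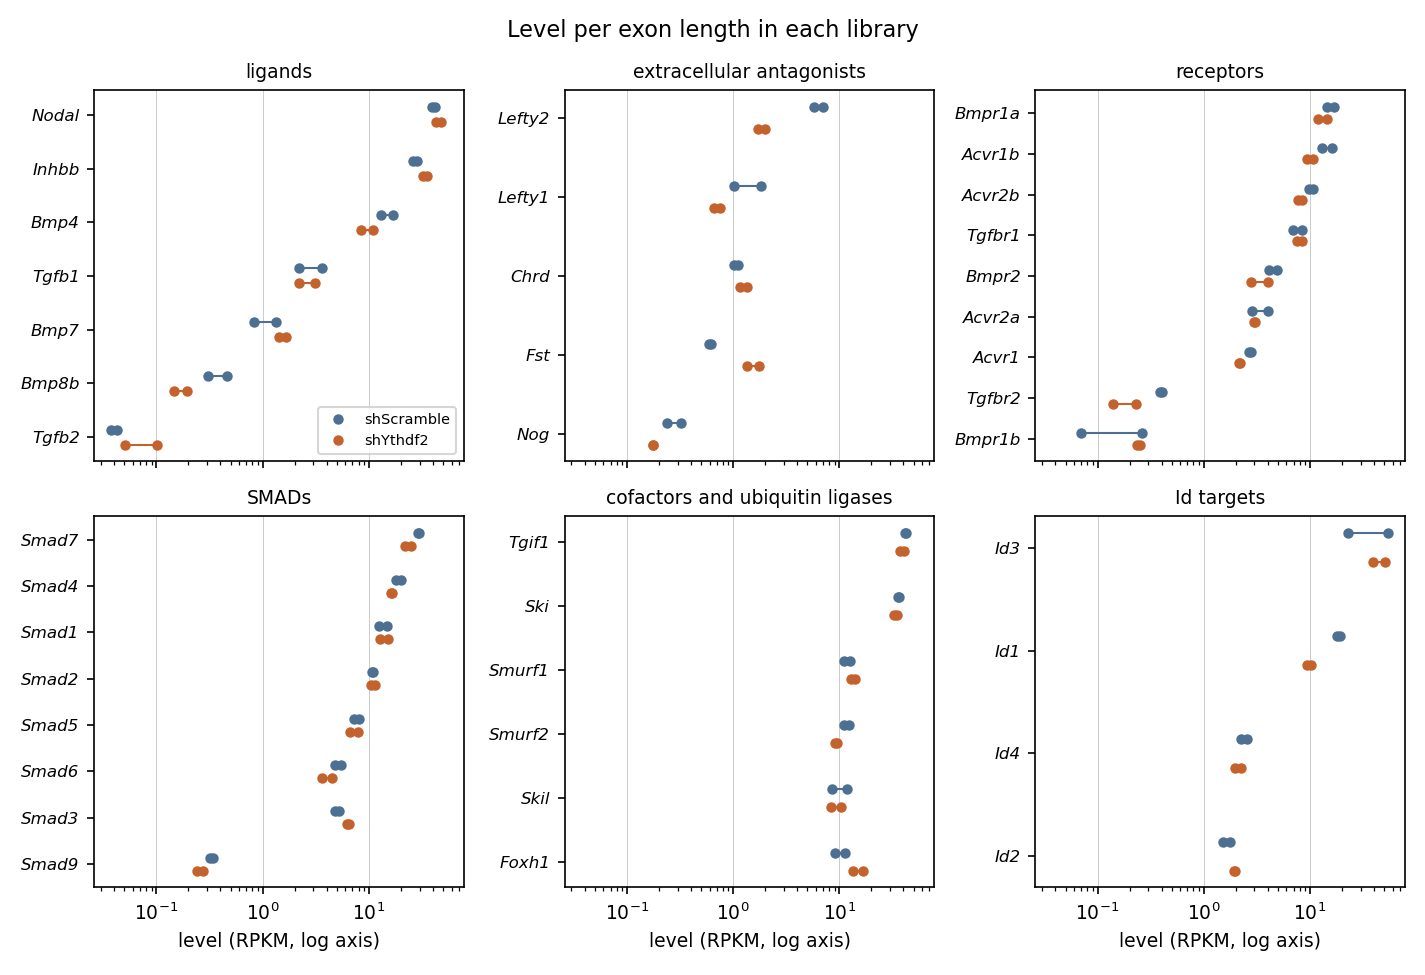
Level per exon length (x axis, RPKM on a log axis) of the 39 signalling genes by role, where points are libraries and a line joins the 2 libraries of a group. Nodal, Inhbb, Tgif1, Ski, Smad7 and Id3 stand at the top, and Lefty2, Fst and Id1 show groups set apart.

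A further list of 70 pathway genes was examined, of which 54 were tested, and edgeR called 2 higher and 1 lower, with 8 (14.8%) in each direction at an unadjusted p under 0.05, beside 11% of all genes higher and 9.8% lower. The 3 calls made 5.56% of the list, beside 3.91% of all genes, so these counts were near the background. Eng, which encodes the co-receptor endoglin, had 1865 and 1787 reads against 4119 and 3896 and rose 2.11-fold (log2 fold change 1.08 ± 0.11 SE, adjusted p = 0.00301 in edgeR). Gdf3, a Nodal-related ligand, had 3137 and 2403 reads against 4463 and 3973 and rose (0.56 ± 0.12 SE, adjusted p = 0.0385 in edgeR). Tdgf1, the Nodal co-receptor Cripto, had 23710 and 23562 reads against 17440 and 18000 and fell (-0.47 ± 0.11 SE, adjusted p = 0.0411 in edgeR). Without shScramble replicate 2 the calls of Gdf3 (0.47, adjusted p = 0.118 in edgeR) and Tdgf1 (-0.38, adjusted p = 0.274 in edgeR) were lost.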

How the data were processed

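RNA of 4 E14 ESC samples (2 shScramble, 2 shYthdf2) was sequenced as strand-marked paired-end libraries. The authors deposited raw read counts per gene, made per the labels and file header with fastp 0.19.4, HISAT2 2.2.1 (mm10) and featureCounts 2.0.3 on RefSeq genes. Single reads rather than fragments were counted, no strand option was set, and multi-mapped and multi-overlapping reads were left out, so counts of paralogs and overlapping genes are low estimates and the precision of pairs is overstated. Totals were 31113006 to 36422510 reads per library.

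Genes passing filterByExpr (at least 10 reads, 15 in total) were tested, 18341 of 49997, holding 99.9% of reads. The main test was the two-sided quasi-likelihood F test of edgeR 4.0.16 (R 4.3.3) after TMM scaling, with Benjamini-Hochberg adjustment over all genes tested and 0.05 as threshold. SE was the fold change divided by the root of F, and intervals are 95%. CPM and RPKM were computed from the counts and the deposited exon lengths. Alternatives were DESeq2 1.42.0 (also with the study's criteria), limma-voom (limma 3.58.1), other scalings and filters, halved counts, the replicate number as a block and each library left out. Scripts were tested on simulated data. Gene positions and exon overlaps came from the deposited table (mm10), and Lefty sequences and shared windows from GENCODE M21 (GRCm38).

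The 44 members and the lists of pathway and marker genes were chosen with earlier results of these data known. Every member was accounted for. Values per library were given for those with p under 0.05 in edgeR and for a list of central members.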

Additional observations from a re-analysis of the deposited data

How the results depend on the processing

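Lefty2 and Id1 were called lower in all 13 settings, and Fst higher in 10, the exceptions being upper quartile scaling, limma-voom and the fit without shYthdf2 replicate 1. Against 1 higher and 2 lower, the counts of members were 0 higher with upper quartile scaling and with limma-voom, 2 higher and 4 lower with no filter on low counts and with DESeq2, and 0 to 3 higher and 3 to 7 lower when 1 library was left out. With the replicate block they were 4 higher and 9 lower. Over all 18341 genes tested, DESeq2 called 808 higher and 615 lower, beside 445 and 273 in edgeR. The larger member counts in DESeq2 thus came with more calls over all genes. For the other settings the share of all genes called is not given, so those member counts lack a background. Same-numbered libraries deviated together with r = 0.225 over 18341 genes, but the labels tie the numbers to no shared batch and only 2 such pairs exist, so the block result is given here alone. The median over members was -0.18 with halved counts and -0.23 to -0.12 when 1 library was left out, where the branch medians ranged from -0.051 to 0.082 (Nodal/activin), -0.26 to -0.15 (BMP), -0.27 to 0.22 (TGF-beta) and -0.23 to -0.18 (shared), and 1 to 3 members met the study's criteria. The median of the 4 TGF-beta genes, -0.049, was also -0.14 at a mean of at least 1 CPM and -0.16 with halved counts, where Tgfb2 was not tested. Of 504 gene values under the alternatives, 457 kept direction and side of the threshold, 3 lost a call, 27 gained one and 17 changed sign. Smad2 was at -0.0093 with upper quartile scaling and -0.00011 at a mean of at least 1 CPM. With 1 library left out, log2 fold changes that changed sign ran over Acvr2a -0.43 to 0.082, Bmpr1b -0.13 to 1.78, Id3 -0.26 to 0.98, Skil -0.34 to 0.13, Smad1 -0.090 to 0.18, Smad2 -0.051 to 0.062, Smad5 -0.19 to 0.052, Tgfb1 -0.45 to 0.27 and Tgfbr1 -0.090 to 0.18. The cause of these changes was not tested. A fit without 1 library leaves a lone sample that is assumed to vary like the other group. Members under about 100 reads had wide intervals (Bmp8b, Tgfbr2, Tgfb2, Nog, Bmpr1b), so a difference of 2-fold there could go uncalled at this depth.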

Other observations

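RefSeq promoter sequences (GRCm38.p6, 250 bases before to 50 after the start) were at hand for 31 of the 44 members and for none of Lefty2, Id1 and Fst. In them, 8 letter strings were searched on both strands, a list chosen after the values of the members had been seen. GGCGCC was in the promoters of 12 of 31 members (38.7%) and of 13.4% of 27025 genes, and AGCCGCC in 5 (16.1%) beside 7.41%. CACGTG was in 3 (9.68%) beside 8.09%, and GTCTAGAC in 1 (3.23%) beside 0.248%. GTCTGGAC, AATCCACA, AATACACA and AATGCACA were in 0 members, beside 1.02%, 1.01%, 1.15% and 1.06% of genes. The median GC content was 65.2% in the promoters of members, 73.7% in those with GGCGCC and 52.7% over all promoters, so base composition moved with these shares and its part in them was not tested. No difference was tested, and a match of letters says nothing about binding.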
